A study of Mus musculus with 9 samples.

Results

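The 10 genes described here are Ctdspl, Tnk2, Vamp4, Slc28a2, Limd1, Egln3, Gbas, Zc3h12c, Klhl23 and Slc34a1. They were picked by name from 26611 named genes because their H3K27me3 counts in the rescue library lay far above those of the other 2 genotypes, so their H3K27me3 values are given as a description and not as a test. All libraries came from mouse leukemia cells carrying MLL-ENL, an oncogenic fusion protein that joins parts of Kmt2a (MLL) and Mllt1 (ENL) and transforms myeloid progenitors. The genotypes were a floxed line (fl), a line labelled ΔERT2, called deleted here, and the ΔERT2 line carrying Flag-tagged Hhex (Hhex-F), called rescue here. Which gene is floxed is not named in the labels, and the series title is the ground for reading it as Hhex. The labels also do not say whether a line is 1 clone, which promoter drives the tagged gene, or what the suffix ERT2 stands for. H3K27me3, H3K4me3 and Flag were each profiled by chromatin immunoprecipitation with sequencing in 1 library per genotype, 9 libraries in all. No difference therefore has a replicate check, and all intervals are 95% intervals of counting error.

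H3K27me3 is laid down by Polycomb repressive complex 2 and marks repressed genes, among them many developmental regulators. H3K4me3 sits at the promoters of active genes. Hhex is a homeodomain transcription factor of blood and liver development, and the study's title links it to Polycomb repression of Cdkn2a in this leukemia. The 10 genes have unlike functions. They encode an RB phosphatase, a LIM-domain scaffold, an oxygen sensor, a tyrosine kinase, an RNA-binding protein, a vesicle fusion protein, a nucleoside carrier, a phosphate carrier, a mitochondrial protein and a Kelch-family protein.

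The H3K27me3 libraries held 2444487 (floxed), 2535576 (deleted) and 4203349 (rescue) counts in named genes, and the H3K4me3 libraries 645240, 420701 and 395133. H3K27me3 was counted over the whole gene span and H3K4me3 in a window of 301 bp, whose position relative to the start site is not stated in the files. Whether that window covers the start of each gene is therefore not known. Counts were scaled to the library total (CPM). A gene was called measured when its counts for a mark averaged 20 or more across the genotypes. It was called higher or lower at a CPM ratio of at least 1.5 in that direction with an interval that left out 1. All 10 genes were measured for H3K27me3, but 6 of them had a mean under 20 counts in floxed and deleted and passed through the rescue count. The myeloid label of the cells could be checked on H3K4me3: 10 of 14 myeloid markers and 3 of 6 stem and progenitor markers were measured, against 1 of 6 B-cell markers (Ebf1), 1 of 4 epithelial markers (Cdh1) and 0 of the markers of T and NK cells, of erythroid cells and megakaryocytes, and of stroma and endothelium. Of the 26611 named genes, 6681 were measured for H3K4me3, and the marker counts were not tested against that share. A marker that was not measured need not lack the mark, since its window may not cover its start. In these bulk libraries, fewer cells carrying a mark and less of the mark per cell cannot be told apart.

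The promoters of these genes were of unlike kinds. Reference sequence was found for 9 of the 10 genes, with 13 start sites in all (RefSeq, GRCm38.p6, from 250 bases before to 50 after each start). The 4 below are shown because their genes span the patterns reported here. First come the longest gene, with the most H3K27me3 counts, the gene with higher H3K4me3 in rescue and the one with lower. The last, Egln3, had almost no H3K4me3 counts in its window. It lies on the minus strand, and whether that window covers the printed start is not known. Each sequence is written 5′ to 3′ on the strand of the gene, with CG dinucleotides in capitals.
Ctdspl (chr9:118926286-118926585, plus strand): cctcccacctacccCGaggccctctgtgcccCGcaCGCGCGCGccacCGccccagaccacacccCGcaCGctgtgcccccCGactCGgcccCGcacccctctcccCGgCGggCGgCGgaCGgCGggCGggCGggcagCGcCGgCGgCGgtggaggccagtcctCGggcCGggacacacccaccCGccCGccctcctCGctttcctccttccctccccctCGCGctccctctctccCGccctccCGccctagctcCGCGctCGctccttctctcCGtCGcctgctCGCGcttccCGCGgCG
Vamp4, the second start (chr1:162570578-162570877, plus strand): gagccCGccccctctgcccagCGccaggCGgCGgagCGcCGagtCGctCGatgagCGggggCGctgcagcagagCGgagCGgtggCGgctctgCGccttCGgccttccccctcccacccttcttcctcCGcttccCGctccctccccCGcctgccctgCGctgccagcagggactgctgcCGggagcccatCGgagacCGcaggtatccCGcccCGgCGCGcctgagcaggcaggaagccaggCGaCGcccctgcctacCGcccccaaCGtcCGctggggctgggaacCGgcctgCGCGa
Slc28a2 (chr2:122426185-122426484, plus strand): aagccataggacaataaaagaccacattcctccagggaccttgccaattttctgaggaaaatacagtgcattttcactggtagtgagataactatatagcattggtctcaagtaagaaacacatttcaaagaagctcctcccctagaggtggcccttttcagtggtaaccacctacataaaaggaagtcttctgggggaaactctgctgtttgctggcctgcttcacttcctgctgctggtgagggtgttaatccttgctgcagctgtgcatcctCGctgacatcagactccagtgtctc
Egln3 (chr12:54203825-54204124, minus strand): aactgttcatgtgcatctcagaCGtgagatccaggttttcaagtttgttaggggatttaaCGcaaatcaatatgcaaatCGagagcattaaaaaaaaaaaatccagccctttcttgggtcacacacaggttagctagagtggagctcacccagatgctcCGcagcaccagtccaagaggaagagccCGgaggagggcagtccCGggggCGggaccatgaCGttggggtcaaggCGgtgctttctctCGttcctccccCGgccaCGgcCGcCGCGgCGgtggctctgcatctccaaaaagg

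The Ctdspl promoter holds 43 CG dinucleotides in 300 bases and the second Vamp4 promoter 34, the Egln3 promoter 16 and the Slc28a2 promoter 1. Over all 32851 promoters of that length the median was 7. Among the 13 start sites of the 10 genes, 7 (53.8%) had at least 10 CG dinucleotides, against 43.5% of all promoters. The others were spread as widely, from 41 at the first start of Zc3h12c and 27 at Gbas to 6 at Tnk2 and 2 at Slc34a1. The only Tnk2 start found, at 32672904 to 32673203 on the plus strand, lies inside the gene span, which begins at 32644099. A start at that end of Tnk2 was not among the 13. The letters ATTAA, which hold the ATTA core common to homeodomain sites, were searched on both strands and occurred at 4 of the 13 starts (30.8%), at Egln3, Slc28a2, Slc34a1 and the second start of Zc3h12c, against 27.1% of all promoters.

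The genes lie on 7 chromosomes (coordinates on mm10). Klhl23 and Slc28a2 are 52.6 Mb apart on chromosome 2. Zc3h12c, Ctdspl and Limd1 lie on chromosome 9, with 66.8 Mb between Zc3h12c and Ctdspl and 4.43 Mb between Ctdspl and Limd1. None of the 10 is next to another. Together they held 219 H3K27me3 counts in the floxed library, 173 in the deleted and 6412 in the rescue library. This was 0.00896% (Wilson interval 0.00785% to 0.0102%) of the floxed library, 0.00682% (0.00588% to 0.00792%) of the deleted library and 0.153% (0.149% to 0.156%) of the rescue library.

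A first group is linked to growth control and oxygen sensing. Ctdspl encodes a small phosphatase that acts on RB and on RNA polymerase II, and it was described in human cells as a tumour suppressor of chromosome arm 3p. Over its span on chromosome 9, 118926536 to 119044119, it had 43, 53 and 2049 H3K27me3 counts in floxed, deleted and rescue. The rescue library stood far above both others, which lay close together, with ratios of 23.3 (17.8 to 31.2) against deleted and 27.7 (20.5 to 38.4) against floxed. An intron of Ctdspl is the known home of the microRNA gene Mir26a-1, whose own span had 0 H3K27me3 counts in each library. How reads over overlapping genes were assigned is not known here, so this 0 does not show absence of the mark. Limd1, a scaffold protein of the Hippo and microRNA pathways that also binds RB, lies on chromosome 9 at 123478661 to 123521552. It had 52, 10 and 698 counts. Here floxed and deleted differed as well: the deleted library was lower than floxed with a ratio of 0.185 (0.0840 to 0.369), and rescue stood 7.81 (5.89 to 10.6) times above floxed and 42.1 (22.8 to 88.2) times above deleted. Egln3, a prolyl hydroxylase that tags HIF proteins for destruction when oxygen is present, lies on chromosome 12 at 54178981 to 54203874. It had 7, 11 and 255 counts, which gave a ratio of 14.0 (7.68 to 28.4) against deleted and 21.2 (10.1 to 53.2) against floxed.

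A second pair acts in signalling and RNA decay. Tnk2 encodes the non-receptor tyrosine kinase ACK1, an effector of the GTPase Cdc42. On chromosome 16, 32644099 to 32683493, it had 16, 16 and 543 counts, the same number in floxed and deleted. The ratios were 20.5 (12.5 to 36.1) against deleted and 19.7 (12.0 to 34.8) against floxed. Its antisense gene Tnk2os lies inside the span, had 0 counts in each library, and could not be separated from it by strand. As at Mir26a-1, this 0 does not show absence of the mark. Zc3h12c, of the Regnase family of RNA-cleaving zinc finger proteins, lies on chromosome 9 at 52109569 to 52168730. It had 9, 7 and 289 counts, which gave a ratio of 24.9 (11.9 to 62.5) against deleted and 18.7 (9.70 to 41.3) against floxed.

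The remaining genes encode membrane and organelle proteins and an adaptor. Vamp4, a SNARE protein of traffic between endosomes and the Golgi, lies on chromosome 1 at 162570515 to 162599082. Its 3, 10 and 493 counts gave a ratio of 29.7 (16.03 to 62.4) against deleted and 95.6 (32.5 to 465) against floxed, and the width of the second interval reflects the 3 floxed counts. Slc28a2, a sodium-coupled carrier of purine nucleosides, lies on chromosome 2 at 122426357 to 122461152. It had 35, 12 and 923 counts, with ratios of 46.4 (26.4 to 90.1) against deleted and 15.3 (10.9 to 22.2) against floxed. Like Limd1 it was lower in deleted than in floxed, with a ratio of 0.331 (0.156 to 0.652). Slc34a1, the sodium-phosphate carrier of the kidney tubule, lies on chromosome 13 at 55399622 to 55414695 and had 20, 17 and 395 counts. Its ratios were 14.0 (8.64 to 24.3) against deleted and 11.5 (7.34 to 19.0) against floxed. The small gene Pfn3 overlaps it and had 0, 3 and 7 counts. Gbas, named Nipsnap2 in RefSeq and encoding a mitochondrial protein, lies on chromosome 5 at 129725016 to 129758327 and had 24, 25 and 470 counts. Its ratios were the most alike of the 10, at 11.3 (7.59 to 17.7) against deleted and 11.4 (7.56 to 18.0) against floxed. Klhl23, of the Kelch-like family whose members serve as adaptors of ubiquitin ligases, lies on chromosome 2 at 69821941 to 69836651. It had 10, 12 and 297 counts and ratios of 14.9 (8.42 to 29.2) and 17.3 (9.26 to 36.4).

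**Figure D1:**
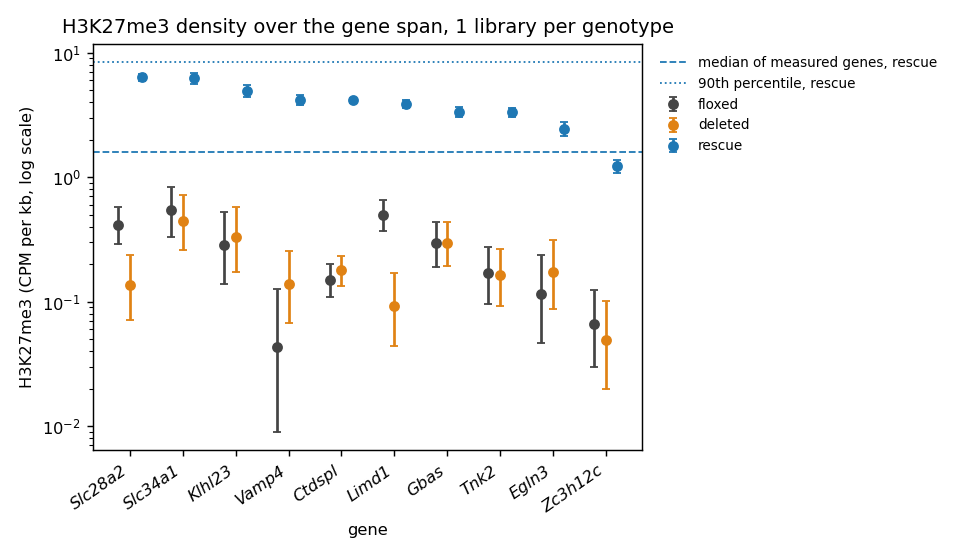
H3K27me3 density in CPM per kb of gene span (log axis) for the 10 genes in the floxed, deleted and rescue libraries, with exact Poisson intervals of counting error; the lines give the median and the 90th percentile over the 10604 measured genes of the rescue library. The rescue points lie between 1.22 and 6.34, above every floxed and deleted point, which do not exceed 0.544.

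The levels per length are a description, since the choice of the genes, and for 6 of them the count filter passed through rescue alone, fixes that floxed and deleted are low beside other measured genes. As the plot of H3K27me3 density shows, they had 0.0434 to 0.544 CPM per kb in floxed (median 0.227) and 0.0492 to 0.446 in deleted (median 0.168), against medians over all measured genes of 1.59 and 1.75. In rescue they had 1.22 to 6.34 CPM per kb, with a median of 4.01 against 1.59 for all measured genes and a 90th percentile of 8.35. Among measured genes of the rescue library, Zc3h12c was lowest of the 10, at percentile 42.8, and Slc28a2 highest, at percentile 86.5. Counts over whole spans do not show where along a gene the mark lay.

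All 10 genes were higher in rescue in both comparisons, which is how they were picked. None was lower, beside 11.3% of measured genes against deleted and 8.05% against floxed. The call of higher was made for 7.07% of the 10604 measured genes against deleted, for 5.72% against floxed, and for 3.27% (347 genes) against both. The median log2 ratio of the 10 was 4.39 against deleted and 4.06 against floxed, beside -0.06 and -0.05 over all measured genes. The comparisons share the rescue library. Between deleted and floxed, which the choice did not set against each other but whose values it also used, 2 of the 10 (Limd1 and Slc28a2) were lower and 0 higher, beside 5.39% and 4.72% of measured genes. The median log2 ratio was -0.02, beside 0.02 for all measured genes.

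Ranked by the smaller of the log2 ratios against deleted and floxed, the 10 genes took ranks 3 (Vamp4, at 4.78) to 21 (Limd1, at 2.95) of the measured genes. Another 11 genes lay at or above Limd1, and the gene just outside, Spsb4, had 27, 30 and 382 counts and a smaller log2 ratio of 2.91. The 5 genes outside the 10 with the largest such ratio were Nt5c3b, Mpo, Klhl10, A830052D11Rik and Jup. Nt5c3b, Klhl10 and Jup lie within one stretch of chromosome 11, from 100368856 to 100457027. Mpo, which encodes myeloperoxidase of neutrophil granules, had 5, 6 and 483 H3K27me3 counts and 89, 49 and 32 H3K4me3 counts. Its H3K4me3 ratio was 0.695 (0.431 to 1.11) against deleted, which was not called. Against floxed it was 0.587 (0.379 to 0.888), called lower.

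At 6 of the 10 genes no measured neighbour within 100 kb was called higher, and Egln3 among them had no named neighbour that near. Within 100 kb there were 49 other named genes, 24 of them measured for H3K27me3. Of these, 7 were higher in rescue against deleted, 6 of them also against floxed, and 1 was lower against deleted, Dlec1 beside Ctdspl. Over all measured genes 7.07% were higher against deleted, 3.27% higher against both, and 11.3% lower against deleted. The difference in share was not tested. The median log2 ratio of the 24 was 0.40 against deleted and 0.22 against floxed, where the genes beside them had 3.46 to 5.44 and 2.95 to 6.24. Many neighbours were not measured because they had few counts in each library, the rescue library included.

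Around Ctdspl, Vill, of the villin family, lies 8610 bp away and had 132, 126 and 290 H3K27me3 counts, which gave a ratio of 1.39 (1.12 to 1.73) against deleted. On the other side, Itga9, an integrin subunit gene, lies 25533 bp away and had 3389, 3921 and 5093 counts, which gave a ratio of 0.784 (0.751 to 0.817). Neither neighbour was called. Beside Limd1, Lars2, the mitochondrial leucyl-tRNA synthetase gene 15986 bp away, had 106, 103 and 148 counts. Its ratios were 0.867 (0.669 to 1.13) against deleted and 0.812 (0.628 to 1.05) against floxed. Sacm1l, a phosphoinositide phosphatase gene 8201 bp away on the other side, had 8, 8 and 16 counts. Neither was called, and Limd1 lies between them. Tfrc, the transferrin receptor gene 11305 bp from Tnk2, had 9, 2 and 22 counts, too few to be measured, with ratios of 6.64 (1.63 to 58.2) against deleted and 1.42 (0.629 to 3.51) against floxed. Muc4, a membrane mucin gene 52393 bp from Tnk2, had 987, 952 and 1882 counts, which gave a ratio of 1.19 (1.10 to 1.29). Phospho2 and Ssb, 24718 and 24911 bp to either side of Klhl23, had 5, 0 and 2 and 1, 3 and 5 counts. Rdx, 20831 bp from Zc3h12c, had 6, 9 and 16 counts. Egln3 had no other named gene within 100 kb. Npas3, a neuronal transcription factor gene 106808 bp away, had 2470, 2849 and 5056 counts. Its ratios were 1.07 (1.02 to 1.12) against deleted and 1.19 (1.13 to 1.25) against floxed, and it was not called. Gm7550, 183859 bp away on the other side, had 8, 6 and 20 counts.

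At the other 4 genes some neighbours were higher too. Psph, the phosphoserine phosphatase gene 7231 bp from Gbas, had 4, 2 and 57 counts, which gave a ratio of 17.2 (4.55 to 145) against deleted, while Mrps17, 6304 bp away on the other side of Gbas, had 1, 0 and 2. Beside Slc34a1, F12, the gene of coagulation factor XII 3263 bp away, had 12, 12 and 84 counts, which gave a ratio of 4.22 (2.29 to 8.50). Prr7, 49572 bp from Slc34a1, had 23, 9 and 171 counts, with a ratio of 11.5 (5.90 to 25.5). Between F12 and Prr7 lies Grk6, a receptor kinase gene with 0, 3 and 13 counts, and beyond them Dbn1 had 258, 212 and 623, a ratio of 1.77 (1.51 to 2.08). On the other side of Slc34a1, Rgs14 had 3, 1 and 9 counts, and the 3 genes called higher within 100 kb all lay on the side of F12. Near Slc28a2, the pseudogene Bambi-ps1 had 1, 1 and 22 counts at 5431 bp, too few to be measured, with a ratio of 13.3 (2.15 to 548) against deleted. Gm14085, named Slc28a2b in RefSeq, had 306, 212 and 963 counts at 23789 bp, a ratio of 2.74 (2.36 to 3.19). It is a copy of Slc28a2 in tandem, and reads of the 2 genes may be shared where their sequences are alike. Shf, 57210 bp to the other side, had 74, 65 and 218 counts, with a ratio of 2.02 (1.53 to 2.71). Myoc, 40068 bp from Vamp4, had 36, 36 and 152 counts, with a ratio of 2.55 (1.76 to 3.77), whereas Mettl13, 21974 bp to the other side of Vamp4, had 4, 4 and 10.

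**Figure D2:**
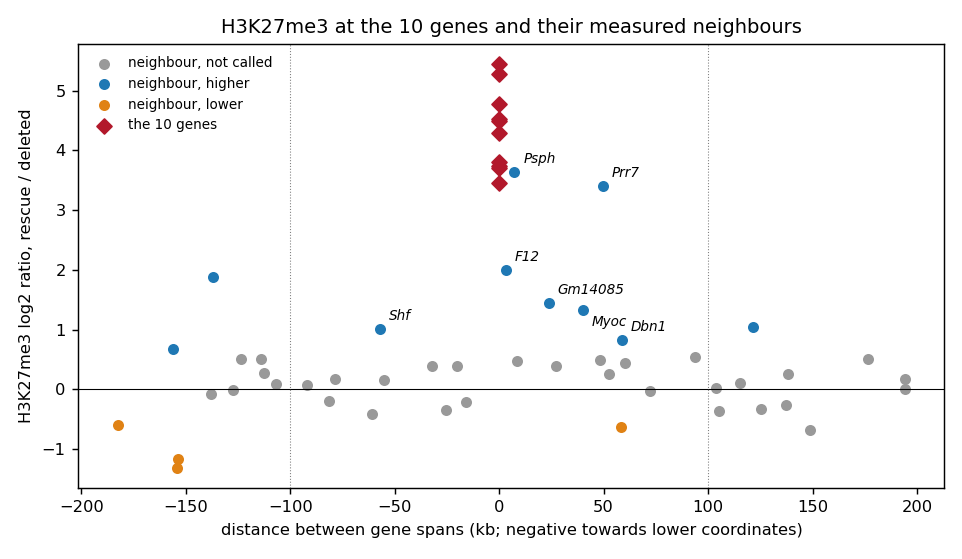
Log2 ratio of H3K27me3 in rescue against deleted for the 10 genes (diamonds, at 0) and for measured genes within 200 kb of them (points), by the distance in kb between gene spans; colours give the call by the size rule, and dotted lines mark 100 kb. Most neighbours lie near 0, and the 7 higher ones within 100 kb are named.

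H3K4me3 was lower in rescue at 1 of the 10 genes. Of the 7 that were measured for this mark, which the choice of genes did not name, Slc28a2 was lower in rescue, Vamp4 was higher, and Ctdspl, Tnk2, Limd1, Gbas and Klhl23 were not called. Calls of lower were made for 5.97% of the 6681 measured genes against deleted and 3.92% against floxed, and calls of higher for 4.49% and 1.92%. The median log2 ratio of the 7 was -0.37 against deleted and -0.35 against floxed, beside 0.03 and -0.01 over all measured genes.

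The Slc28a2 window had 37, 50 and 1 H3K4me3 counts in floxed, deleted and rescue, or 57.3, 119 and 2.53 CPM. It was near empty in rescue, with a ratio of 0.0213 (0.000529 to 0.124) against deleted and 0.0441 (0.00109 to 0.262) against floxed, and higher in deleted than in floxed with a ratio of 2.07 (1.33 to 3.26). A call of higher between deleted and floxed was made for 3.02% of measured genes. Slc28a2 had its lowest H3K27me3 and its highest H3K4me3 in deleted, and the reverse in rescue, each mark in its own library. The high H3K27me3 in rescue was fixed by the choice of genes, and H3K4me3 there rests on 1 count.

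Vamp4 went the other way. Its window had 114, 74 and 137 counts, or 177, 176 and 347 CPM. Floxed and deleted were alike and rescue was higher, with a ratio of 1.97 (1.48 to 2.65) against deleted and 1.96 (1.52 to 2.54) against floxed. Both marks were thus higher in rescue at Vamp4, one over the gene span and the other in its window.

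Ctdspl had one of the stronger H3K4me3 windows, at percentile 98.6 of measured genes in floxed, with 231, 159 and 111 counts or 358, 378 and 281 CPM. Rescue was the lowest of the 3, with a ratio of 0.743 (0.578 to 0.953) against deleted and 0.785 (0.620 to 0.988) against floxed, short of the 1.5 needed for a call. Tnk2 had 193, 116 and 84 counts, which gave a ratio of 0.771 (0.575 to 1.03) against deleted and 0.711 (0.543 to 0.923) against floxed. Limd1 had 98, 62 and 45 counts, with ratios of 0.773 (0.514 to 1.15) and 0.750 (0.515 to 1.08). At these 3 genes the ratio lay below 1 in both comparisons, and at Limd1 both intervals included 1. Gbas had 72, 37 and 39 counts, which gave a ratio of 1.12 (0.697 to 1.81) against deleted and 0.885 (0.583 to 1.32) against floxed. Klhl23 had 140, 92 and 93 counts, with ratios of 1.08 (0.798 to 1.45) and 1.08 (0.825 to 1.42), so a fall of the size seen at Slc28a2 lay outside the intervals of these 5 genes. Their windows kept H3K4me3 in rescue, at 98.7 CPM (Gbas) to 281 CPM (Ctdspl). In the separate H3K27me3 library of rescue, H3K27me3 over their spans was 11.3 (Gbas) to 42.1 (Limd1) times the deleted level.

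The other 3 genes had almost no H3K4me3 counts in their windows in any genotype. Egln3 and Zc3h12c lie on the minus strand, and whether their windows cover their starts is not known. Egln3 had 2, 0 and 0 counts, Zc3h12c 0, 2 and 0, and Slc34a1 2, 3 and 1. The exact Poisson interval of a count of 0 in the rescue library reaches 9.34 CPM, and that of the 1 count of Slc34a1 reaches 14.1 CPM. No change of H3K4me3 could be seen for these genes in these windows, where counts were few. For Egln3 and Zc3h12c the start itself may not have been counted. Among the neighbours within 100 kb, 19 were measured for H3K4me3. None was lower in rescue in either comparison, and 1, Cct6a beside Gbas with 70, 65 and 68 counts, was higher against floxed.

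**Figure D3:**
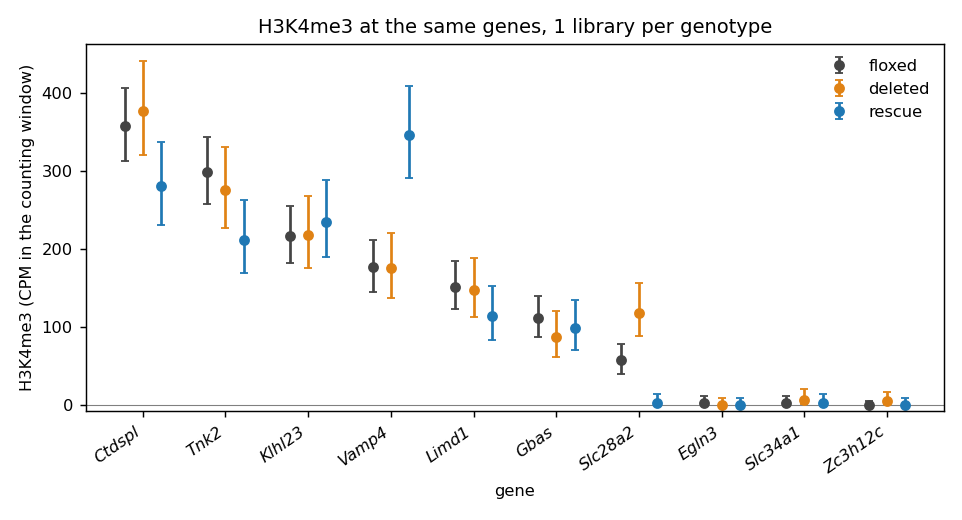
H3K4me3 in CPM in the 301 bp window of each of the 10 genes in the floxed, deleted and rescue libraries, with exact Poisson intervals of counting error. Vamp4 is highest in rescue (347 CPM), Slc28a2 is near 0 in rescue (2.53 CPM), and Egln3, Slc34a1 and Zc3h12c are near 0 throughout.

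The same question can be put to the other genes with higher H3K27me3 in rescue. Leaving out the 10, 337 genes were higher in H3K27me3 against both deleted and floxed, and 91 of them were measured for H3K4me3. Of these 24 (26.4%) were lower in H3K4me3 in rescue against deleted and 3 (3.30%) higher, and their median was -0.19 on the log2 scale. Against floxed 18 (19.8%) were lower and 1 (1.10%) higher. These shares stand beside the 5.97% and 3.92% lower over all measured genes given above. The sets are unlike, since the 6681 genes behind those percentages were measured for H3K4me3 and the 91 for both marks. The share over all genes measured for both marks was not computed. With a gain of at least 4 against both, 6 of 14 measured genes (42.9%) were lower against deleted and 4 (28.6%) against floxed. Among the 10 genes 1 of 7 (14.3%) was lower. The difference in share was not tested.

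**Figure D4:**
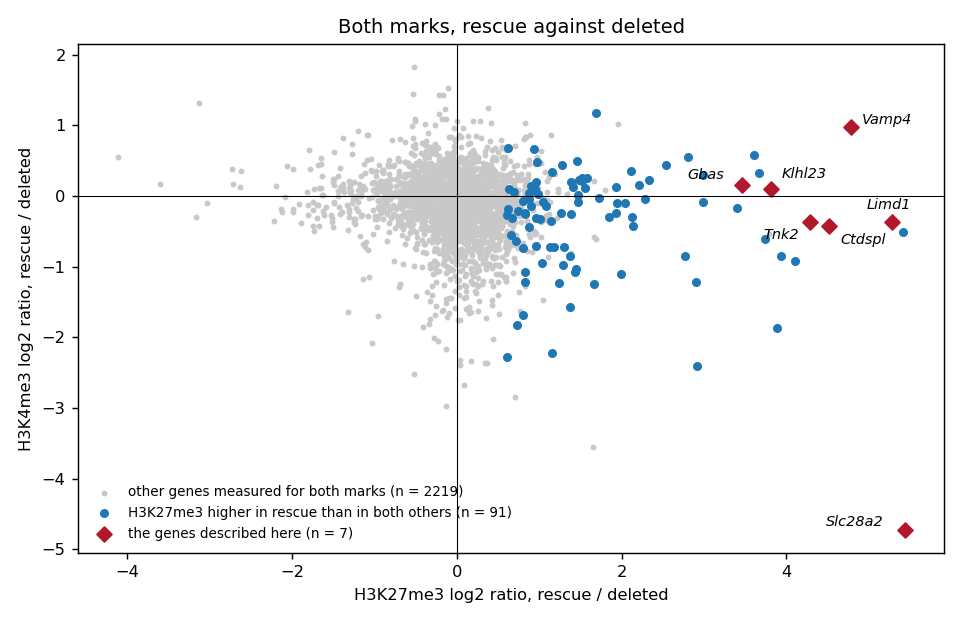
Log2 ratios of H3K27me3 (x axis) and H3K4me3 (y axis) in rescue against deleted for genes measured for both marks: 7 of the 10 genes (diamonds), 91 other genes whose H3K27me3 was higher in rescue than in both other libraries (blue points) and 2219 further genes (grey points). Slc28a2 lies lowest on the H3K4me3 axis at -4.72 and Vamp4 at 0.97, with the other diamonds between -0.43 and 0.16.

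None of the 10 genes had a Flag summit within 10 kb in any of the 3 Flag libraries. The lists held 475 (floxed), 220 (deleted) and 429 (rescue) summits, and 0.692%, 0.324% and 0.582% of 25271 genes with a position had one within 10 kb. Within 100 kb, Limd1 had 1 summit in each library, at 16.6 kb from its span in all 3, where 2.97% (floxed), 1.39% (deleted) and 2.89% (rescue) of all genes with a position had one. It lies at 123462078 on chromosome 9 in the floxed list, where the cells carry no tagged Hhex by their label, and falls inside the span of Lars2. At Egln3 the nearest rescue summit lay 571 kb away, at Slc28a2 1041 kb and at the other 7 genes 1791 kb or farther.

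Genes of the families and pathways of the 10 were read from 10 lists. In these lists together, 98 genes were measured for H3K27me3, of which 9 were higher and 13 lower in rescue against deleted and 2 higher and 8 lower against floxed, with medians on the log2 scale of -0.07 and -0.10. These counts stand beside 7.07% higher and 11.3% lower against deleted, and 5.72% and 8.05% against floxed, over all measured genes. The 2 higher in both comparisons were Tead2, a transcription factor of the Hippo pathway, with 154, 137 and 398 counts, and Nfkbiz, a regulator of NF-κB target genes, with 12, 15 and 46. Among 17 measured paralogues of the 10, 0 were higher and 2 lower against deleted (Klhl3 and Vamp5) and 0 of either kind against floxed. Of 8 measured genes of oxygen sensing and HIF, 2 were higher against deleted (Adm and P4ha2) and 3 lower, and 0 higher and 1 lower, the demethylase gene Kdm4b, against floxed. The Hippo list had 2 of 17 higher against deleted, Tead2 and Wwtr1, and 1 lower, Frmd6, and against floxed 1 higher, Tead2, and 2 lower, Frmd6 and Ctgf. The RB list had 1 of 10 higher against deleted, E2f7, and 2 lower, E2f5 and Tfdp2, and against floxed 0 higher and 2 lower, Tfdp2 and Ccnd2.

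From a list around human 3p21, on the chromosome arm of CTDSPL and LIMD1, 17 genes were measured. Against deleted 1 was higher (Ccr9) and 2 were lower (Xylb and Dlec1). Against floxed 0 were higher and 2 lower (Xylb and Sema3b). Endosomal and Golgi SNARE genes had 0 of 3 called in either direction. Nucleoside transport and salvage had 0 of 5 higher and 1 lower (Adk) against deleted, and phosphate handling 0 of 11 higher and 1 lower (Kl), with 0 called against floxed in either list. The list of NF-κB and inflammatory mRNA control had 2 of 7 higher against deleted (Zfp36l1 and Nfkbiz) and 1 lower (Vcam1), and against floxed 1 higher (Nfkbiz) and 1 lower (Vcam1). For H3K4me3, 102 genes of the 10 lists were measured, with 5 higher and 6 lower against deleted and 4 higher and 2 lower against floxed. Over all measured genes 4.49% were higher and 5.97% lower against deleted, and 1.92% and 3.92% against floxed. P4ha2, a collagen prolyl hydroxylase gene, was lower in both, with 106, 87 and 26 counts in its H3K4me3 window and 548, 453 and 1282 H3K27me3 counts over its span.

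Cell type markers were read in the same way, and their part in the results above was not tested. For H3K27me3, 3 myeloid markers were measured, of which Mpo was higher and the receptor gene Csf1r lower against both deleted and floxed. Of 4 measured progenitor markers 1, the receptor gene Kit, was lower in both comparisons and 0 were higher. Of 7 measured stromal and endothelial markers 1, Col1a1, was lower against deleted and 0 were called against floxed. None of 5 measured markers of T and NK cells and none of 4 epithelial markers was called in either comparison. For H3K4me3 15 markers were measured. Against deleted 2 were higher, the myeloid genes Elane and Irf8, and 0 lower. Against floxed 1 was higher, Irf8, and 1 lower, Mpo. The 14 myeloid markers summed to 1565 CPM of H3K4me3 in floxed, 1307 in deleted and 1569 in rescue, with the deleted library the lowest.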

How the data were processed

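H3K27me3 and H3K4me3 were measured in 6 libraries and Flag in 3, with 1 library for each mark and genotype. For each histone library the authors deposited raw counts by gene, not normalized. Per the submitters' processing notes, mm10, featureCounts and MACS2 were used, without versions, and no aligner is named in the sources used here. Genes lacking a symbol (568 of 27179, holding 0.608% to 0.739% of a library's counts) were left out of totals. For Flag the authors deposited peak summits, each scored on a −log10 scale.

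CPM, ratios with exact conditional binomial (Clopper-Pearson) intervals and log2 ratios with 1 added as prior count, scaled by library size, were computed with Python 3.11.15 and scipy 1.17.1. Intervals cover counting error only. With 1 library per group no test between conditions was made. Positions came from a RefSeq table of GRCm38.p6 joined by Entrez number, which placed 25271 of the 26611 named genes. Alternatives used edgeR 4.0.16 TMM factors, DESeq2 1.42.0 size factors, other filters, folds, prior counts and distances. The 10 genes and the gene lists were chosen with earlier results of these data known. Named genes were the 10 genes, their nearest neighbour on each side and overlapping genes, the 5 other genes with the largest gain, and up to 4 called genes per list and mark. Gm14085, Prr7, Dbn1, Grk6, Cct6a and Spsb4 fall outside that rule and were named after their values were seen. The H3K27me3 results of 3 lists are not reported here.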

Additional observations from a re-analysis of the deposited data

How the results depend on the processing

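Every H3K27me3 and H3K4me3 log2 ratio of a single gene among the 10 (34 values in rescue against deleted or floxed) kept its sign with edgeR TMM factors, with DESeq2 size factors and with a prior count of 5. The prior of 5 moved the H3K4me3 log2 ratio of Slc28a2 from -4.72 to -3.33 against deleted and from -3.70 to -2.40 against floxed. The medians over the 10 genes kept their sign under the same alternatives. With a size rule of 2, Slc28a2 stayed the 1 gene lower in H3K4me3, and 0 genes were higher against deleted or floxed, since Vamp4 lay just under 2. All 10 genes stayed higher in H3K27me3 with a size rule of 2 and without a filter on counts, and 9 with a mean of at least 100 counts, which Egln3 does not reach. The H3K27me3 calls at a size rule of 2 and the kept H3K27me3 signs were fixed by the choice of genes. Their lowest H3K27me3 ratio was 7.81, against floxed. The number of members with a Flag summit went from 0 to 1 in each library when the distance was widened from 10 kb to 100 kb. The neighbours higher in H3K27me3 numbered 5 within 50 kb and 10 within 200 kb, against 7 within 100 kb. The share of other gained genes lower in H3K4me3 against deleted went from 26.4% to 42.9% when a gain of 4 was required, with 14 genes left.

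Counts over all genes depended on the rule. For H3K27me3 against deleted (1196 lower, 750 higher) they were 484 and 323 with a size rule of 2, and 384 and 430 with a mean of at least 100 counts; without a filter 1149 were higher. Against floxed (854 lower, 607 higher) they were 319 and 289, and 268 and 276, with 1000 higher without a filter. For H3K4me3 against deleted (399 lower, 300 higher) they were 194 and 80 with a size rule of 2, and 30 and 14 with a mean of at least 100 counts, with 629 lower without a filter. Against floxed (262 lower, 128 higher) they were 98 and 20, and 9 and 4, with 335 higher without a filter. Fewer genes are tested with the higher minimum.

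With 1 library per group, leaving out a replicate was not run. Depth limits H3K4me3: the exact Poisson interval of a count of 0 reaches 5.72 CPM in floxed, 8.77 in deleted and 9.34 in rescue.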
